A study of Mus musculus with 12 samples.

Results

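The 10 genes described here encode the AP-1 subunits Fos, Fosl1, Fosl2, Jun, Junb and Jund, the related factors Atf3 and Creb5, the zinc finger factor Egr1 and the salt-inducible kinase Sik1. They were chosen by name, as the rows of the expression table whose Ensembl identifier carries one of these symbols, and make up 10 of the 46983 genes in the table. All 10 were among the 18023 genes tested, which are those with at least 0.1 FPKM in at least 3 of 12 libraries. FPKM is the number of fragments of a gene scaled to the length of its exons and to the depth of the library. Creb5 and Sik1 were taken because their values had stood out between the cell types in an earlier analysis of the same data, so their levels are described here with no test, and the other 8 genes were tested.

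RNA was sequenced from C2C12 cells, a mouse myoblast line whose cells stop dividing and fuse into myotubes when they differentiate. The 4 groups were wild-type cells (WT, also called the PB-IP group after the PiggyBac vector) and cells with the PPARγ coding sequence in that vector (PPARγ/+), each on 0d and 5d, and each group held 3 libraries. According to the study's methods the PPARγ/+ cells were obtained by transposase and puromycin selection of positive clones, and neither the number of clones nor the promoter is given in the sources used here. The submitters' design note speaks of inducible cells with uninduced controls, which the methods do not describe. The study calls the 3 libraries of a group biological replicates and does not describe separate cultures, so p-values measure the spread between these libraries.

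AP-1 is a dimer of a JUN protein with a FOS, JUN or ATF protein, and it binds the element TGACTCA. Fos, Junb, Egr1 and Atf3 are immediate early or stress-induced genes, which are transcribed without new protein synthesis when growth factors, serum, calcium or stress act on the SRF, ELK and CREB factors already bound at their promoters, and their transcripts decay quickly. In myoblasts high AP-1 activity accompanies proliferation, and JUN can block transcription driven by MyoD. SIK1 is a kinase induced through CREB that phosphorylates the CREB coactivators and the class IIa histone deacetylases, and in muscle it is known to relieve the repression of MEF2.

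Promoter sequence was available for 7 of the 10 genes in the RefSeq table used here (build GRCm38.p6), which gives 250 bases before each start, and Sik1, Fosl1 and Egr1 have no entry. The 4 genes with a CREB or AP-1 element in this window are shown, because the element differs between Creb5 and the early genes Fos and Junb. The elements searched on both strands were the CRE (TGACGTCA), its half-site (TGACG, which is also found inside the CRE), the TRE (TGACTCA) and the CArG box bound by SRF. Capitals mark the matches, positions count back from the base before the RefSeq start, and in Atf3 the capitals read the half-site on the opposite strand.
Fos, chr12:85473640-85473889, + strand: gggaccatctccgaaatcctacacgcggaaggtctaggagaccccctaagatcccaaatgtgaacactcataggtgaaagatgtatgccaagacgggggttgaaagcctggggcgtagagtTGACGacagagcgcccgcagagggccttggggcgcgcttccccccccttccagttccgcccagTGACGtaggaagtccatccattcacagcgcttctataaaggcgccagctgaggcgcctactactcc
Junb, chr8:84978749-84978998, - strand: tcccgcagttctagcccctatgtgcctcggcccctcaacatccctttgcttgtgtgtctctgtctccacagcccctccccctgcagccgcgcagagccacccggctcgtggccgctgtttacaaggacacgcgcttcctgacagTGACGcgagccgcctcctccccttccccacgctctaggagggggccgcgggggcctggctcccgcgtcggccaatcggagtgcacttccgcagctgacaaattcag
Atf3, chr1:191183334-191183583, - strand: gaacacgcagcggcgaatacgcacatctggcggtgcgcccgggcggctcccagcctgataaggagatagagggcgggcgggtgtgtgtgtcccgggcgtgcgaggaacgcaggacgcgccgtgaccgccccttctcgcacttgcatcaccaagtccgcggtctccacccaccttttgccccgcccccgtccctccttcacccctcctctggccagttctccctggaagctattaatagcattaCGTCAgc
Creb5, first start, chr6:53287053-53287269, + strand: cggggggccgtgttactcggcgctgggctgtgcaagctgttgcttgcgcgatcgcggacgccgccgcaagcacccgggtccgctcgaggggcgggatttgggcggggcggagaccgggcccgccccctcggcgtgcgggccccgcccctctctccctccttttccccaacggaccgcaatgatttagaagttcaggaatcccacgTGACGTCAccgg
Creb5, second start, chr6:53573319-53573345, + strand: gggaaggataTGACTCActcaagctag
Fos held half-sites that began at -129 and -66, Junb held 1 at -106 and Atf3 held 1 at -7. The first Creb5 start had a full CRE that began at -45, and the second had a TRE that began at -45, of which only the short window around it is shown since part of this stretch is annotated as exon. Among 32851 promoters of the same length, 1.55% held the CRE, 4.46% the TRE, 17.8% the half-site and 1.47% the CArG box. No match to these elements was found in the windows of Jun, Fosl2 and Jund. The CArG box was found in no window of the 7 genes. Sequence before the 250 bases was not searched, so an element further from the start would not be seen. All 250 bases of the Fosl2 window (chr5:32136222-32136471) are annotated as exon of a gene. The Jund window (chr8:70697489-70697738) ends well before the gene start at chr8:70698949. The Atf3 window lies inside the gene, whose start on the - strand is at chr1:191218039, and 7 of its bases are annotated as exon. For Fosl2, Jund and Atf3 the window thus does not lie directly before the gene start given below, and the sequence there was not searched. A match describes the letters and is not evidence of binding.

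The depth lay between 15557940 and 22013354 fragments on genes per library. Pparg, the overexpressed gene, measured between 3.12 and 7.56 FPKM in the 6 WT libraries and between 28.0 and 92.7 FPKM in the 6 PPARγ/+ libraries, as every label says. All 4 myoblast markers (Myod1, Myf5, Des, Cdh15) reached 1 FPKM in every library. On 0d they summed to 148.5 to 262.9 FPKM in WT and 62.1 to 87.1 FPKM in PPARγ/+ cells. On 5d they summed to 181.8 to 663.6 FPKM in WT and 253.8 to 297.5 FPKM in PPARγ/+ cells. Des made up most of each sum. Myf5 was 11.3 to 13.2 FPKM in WT_0d and lower, 3.53 to 5.96 FPKM, in WT_5d. In PPARγ/+ cells Myf5 was 3.66 to 4.25 FPKM on 0d and 5.58 to 8.47 FPKM on 5d. The summed level of the 5 myotube markers (Myog, Ckm, Acta1, Myh3, Tnnt3) was 8.88 to 92.2 FPKM in WT_0d, 6.50 to 21.1 FPKM in PPARγ/+_0d and 813 to 956 FPKM in PPARγ/+_5d. The 5 adipocyte markers (Adipoq, Plin1, Fabp4, Cfd, Lpl) summed to 3.46 to 7.27 FPKM in WT cells. In PPARγ/+ cells they summed to 10.3 to 16.2 FPKM on 0d and 39.2 to 131 FPKM on 5d. Lpl alone made up 3.38 to 7.22 FPKM in WT cells and 7.51 to 11.8 FPKM in PPARγ/+_0d. Endothelial markers summed to at most 0.115 FPKM, and of the macrophage markers only Cd68 reached 1 FPKM.

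The third WT library on 5d stood apart from the other two of its group. Its myotube markers summed to 804 FPKM, against 3637 and 2724 FPKM in WT_5d replicates 1 and 2, and it had the highest Fos, Junb and Egr1 of all 12 libraries. The immediate early gene Nr4a1 was 71.3 FPKM in it, against 5.33 and 12.1 FPKM. The members' changes between days in WT cells are therefore also given without this library, and the reason for its values was not tested. The library was set apart partly by its levels of Fos, Junb, Egr1 and Nr4a1. Results for these and like genes without it are thus a description and not an independent test. On 0d WT_0d replicate 2 also differed from its group, with myotube markers at 92.2 FPKM, against 13.6 and 8.88 FPKM in replicates 1 and 3. In bulk RNA fewer cells of a type and less RNA per cell cannot be told apart.

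**Figure D1:**
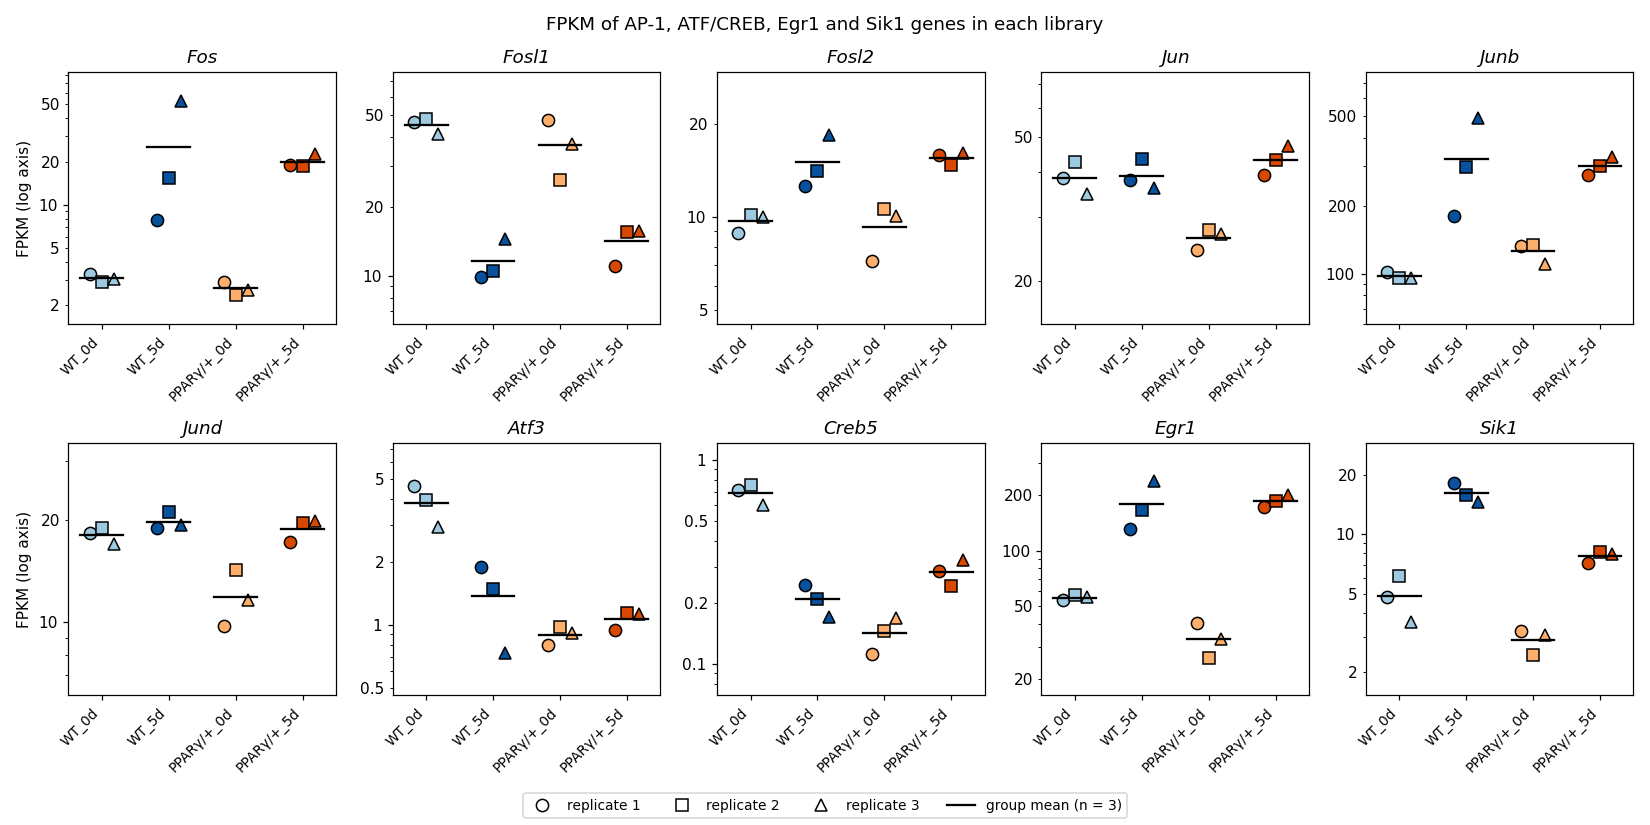
FPKM of the 10 genes in each library, on a log axis, with 1 panel per gene, the 4 groups on the x axis, symbols for the replicate number and a line at the group mean (n = 3). Fos, Junb and Egr1 are higher on 5d in both cell types, Fosl1 is lower, and replicate 3 of WT_5d (triangle) lies at 52.7 FPKM for Fos and 491 FPKM for Junb.

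The change from 0d to 5d was examined first, within WT cells and within PPARγ/+ cells, with limma on log2(FPKM + 0.1). A gene was called here when p before adjustment did not exceed 0.05 and the difference reached 2-fold. In WT cells Fos, Junb and Egr1 rose and Fosl1 and Atf3 fell, so that 5 of the 8 tested genes were called where 16.5% of all genes were. Of these 3 rose, beside 8.94% of all genes, and 2 fell, beside 7.53%. In PPARγ/+ cells Fos, Junb and Egr1 rose and Fosl1 fell, so that 4 of 8 were called where 15.2% of all genes were. Of these 3 rose, beside 9.11% of all genes, and 1 fell, beside 6.06%. The median change of the 8 genes was 0.37 (log2) in WT and 0.74 in PPARγ/+ cells, beside -0.08 and -0.10 over all genes tested. The libraries of 0d and 5d did not overlap for 7 of the 8 genes in either cell type, as was the case for 51.1% of all genes in WT and 58.1% in PPARγ/+ cells. With WT_5d replicate 3 left out the same 5 genes were called in WT cells, where 17.0% of all genes then were.

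**Figure D2:**
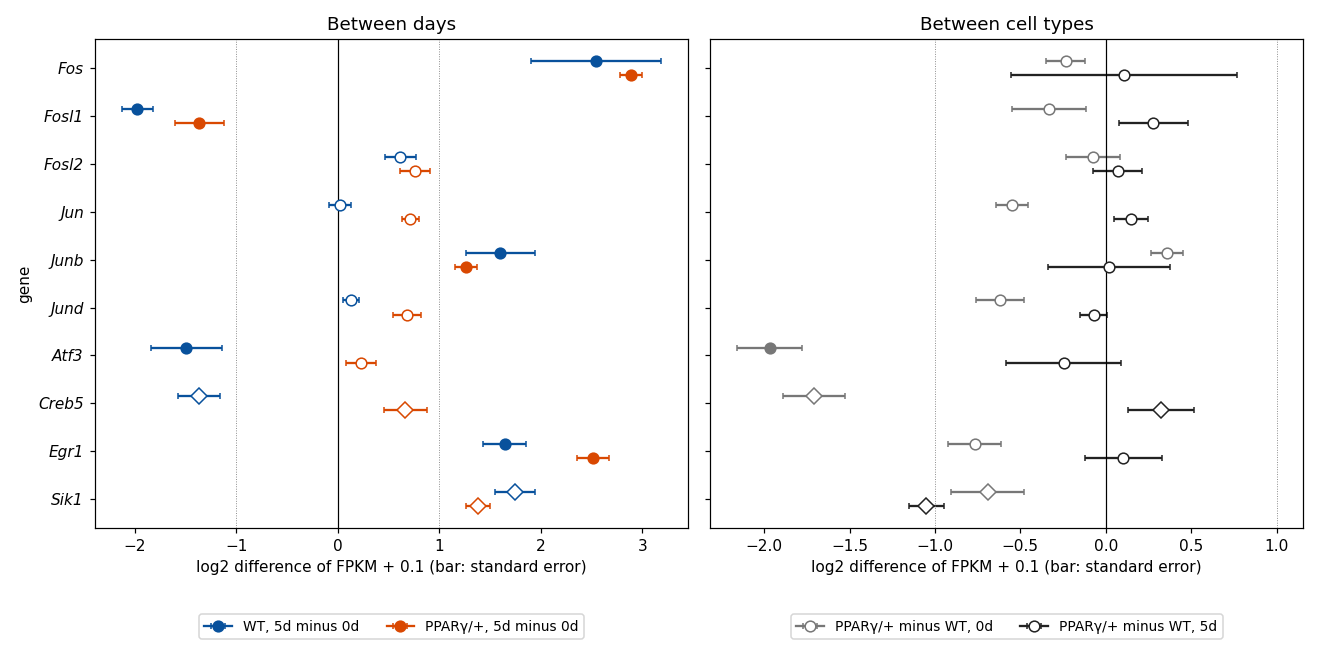
Log2 differences of FPKM + 0.1 with standard errors, between days (left) and between cell types (right), where filled circles mark a call, open circles no call and diamonds the untested Creb5 and Sik1. Fos differs by 2.54 and 2.88 between days in WT and PPARγ/+ cells, and the dotted lines mark a 2-fold difference.

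Fos, the classical immediate early gene of the FOS family, was 3.31, 2.92 and 3.05 FPKM in WT_0d and 7.81, 15.3 and 52.7 FPKM in WT_5d. In PPARγ/+ cells it was 2.93, 2.36 and 2.57 FPKM on 0d and 18.8, 18.7 and 22.5 FPKM on 5d. The days did not overlap in either cell type, and the WT_5d libraries reached both below and above those of PPARγ/+_5d. The rise was 2.54 on the log2 scale in WT cells (SE 0.64, adjusted p = 0.0227 by limma) and 2.88 in PPARγ/+ cells (SE 0.11, adjusted p = 1.61e-05). Without WT_5d replicate 3 the WT rise was 1.79 (SE 0.29, adjusted p = 0.00803), still a call.

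Fosl1, which encodes FRA1 and is itself known as an AP-1 target, went the other way. It was 46.5, 48.2 and 41.4 FPKM in WT_0d and 9.84, 10.5 and 14.5 FPKM in WT_5d, and 47.6, 26.1 and 37.4 FPKM in PPARγ/+_0d and 11.0, 15.5 and 15.7 FPKM in PPARγ/+_5d. All 5d libraries lay below all 0d libraries. Fosl1 fell by 1.97 on the log2 scale in WT cells (SE 0.16, adjusted p = 0.000402) and by 1.36 in PPARγ/+ cells (SE 0.24, adjusted p = 0.00350). Leaving out WT_5d replicate 3 gave a fall of Fosl1 in WT cells by 2.14 (SE 0.09). Fosl2, which encodes FRA2, was 8.90 to 10.2 FPKM in WT_0d, 12.6 to 18.5 FPKM in WT_5d, 7.19 to 10.7 FPKM in PPARγ/+_0d and 14.8 to 16.2 FPKM in PPARγ/+_5d. Its log2 differences between days, 0.61 (SE 0.15, adjusted p = 0.0213) and 0.76 (SE 0.15, adjusted p = 0.00531), passed the p-value and stayed under 2-fold, and the first was 0.46 (SE 0.10) without that library.

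The FOS genes were also compared as shares of their family. FPKM is a level per length of a gene's exons, which is what a comparison of genes within a library needs. For Fosl1 1163 of its 2033 exonic bases lie in an exon of Ccdc85b on the other strand, and since the strand setting of the counting is not given, its level relative to Fos and Fosl2 is uncertain. Fosl1 made up 77.3% ± 1.62 (SD, n = 3) of the summed FPKM of Fos, Fosb, Fosl1 and Fosl2 in WT_0d and 24.8% ± 7.54 in WT_5d. In PPARγ/+ cells its share was 73.8% ± 8.10 on 0d and 27.8% ± 3.79 on 5d. Fos made up 5.29% ± 0.488 on 0d and 41.3% ± 18.2 on 5d in WT cells, and 5.36% ± 0.522 and 39.6% ± 1.87 in PPARγ/+ cells. In WT_5d the Fos share was 25.2%, 37.8% and 61.1% in replicates 1 to 3, and the mean without replicate 3 was 31.5% for Fos and 28.9% for Fosl1. The summed level of the family was 58.6 ± 3.44 FPKM in WT_0d, 52.6 ± 29.6 in WT_5d, 49.5 ± 9.30 in PPARγ/+_0d and 50.4 ± 4.30 in PPARγ/+_5d. The shares of Fosl1 did not overlap between days, with p = 0.1 for each cell type in a two-sided exact permutation test, the smallest value that 3 libraries against 3 can give (adjusted p = 0.16 over the 8 tests of family shares). Between the cell types the Fosl1 share differed by -3.49 percentage points on 0d and 2.99 points on 5d (exact permutation p = 0.6 and p = 0.7).

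**Figure D3:**
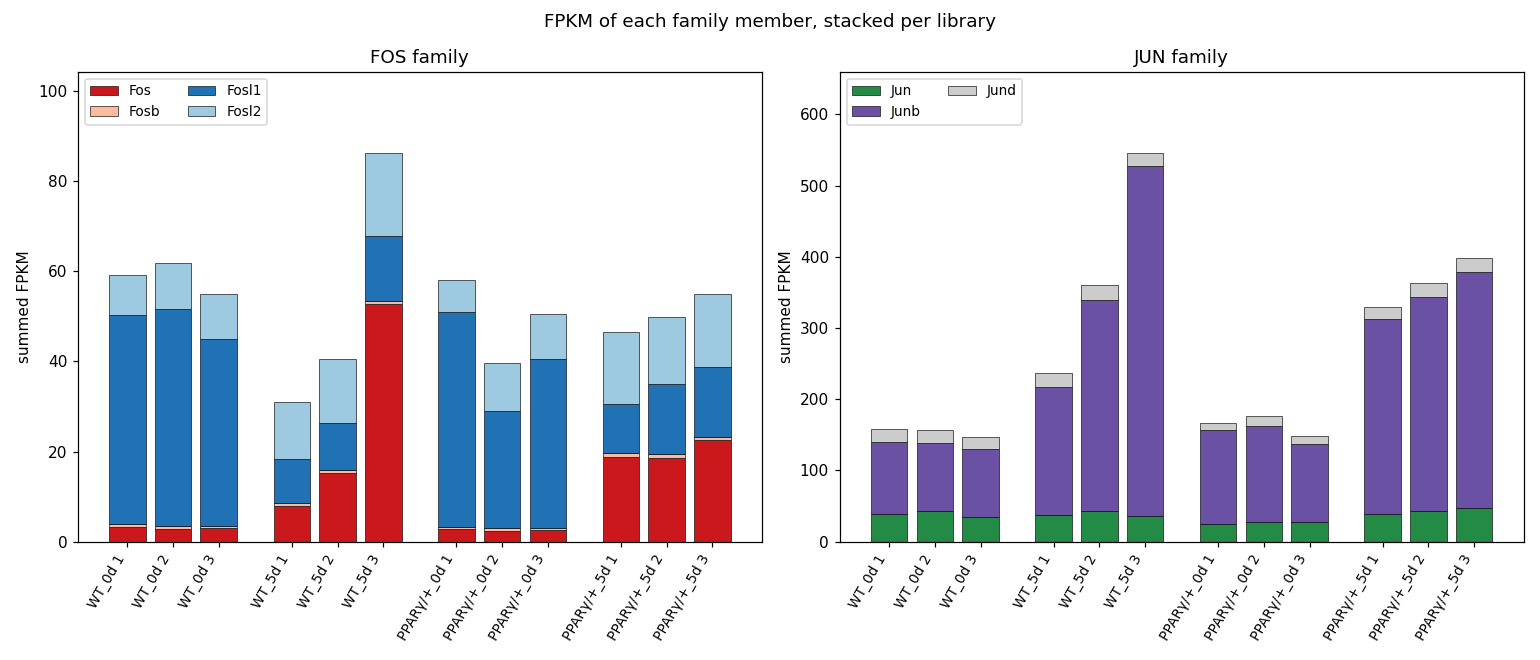
Summed FPKM of the FOS family (left) and the JUN family (right) in each of the 12 libraries, with 1 colour per gene, on axes that start at 0. Fosl1 is the largest part of the FOS bar in all 6 libraries of 0d and Junb the largest part of every JUN bar, and WT_5d replicate 3 has the tallest bars at 86.3 and 546 FPKM.

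Among the JUN genes Junb, whose product is a weaker activator than JUN on many promoters, had the highest level. Junb was 102, 95.4 and 95.8 FPKM in WT_0d and 180, 296 and 491 FPKM in WT_5d. In PPARγ/+ cells it was 133, 135 and 110 FPKM on 0d and 273, 300.3 and 331 FPKM on 5d. The days were separate in each cell type. Junb rose by 1.601 on the log2 scale in WT cells (SE 0.34, adjusted p = 0.0123) and by 1.26 in PPARγ/+ cells (SE 0.11, adjusted p = 0.000185). Leaving out WT_5d replicate 3 gave a WT rise of 1.24 (SE 0.22, adjusted p = 0.0103).

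Jun, the founding AP-1 subunit, was 38.6, 42.6 and 34.7 FPKM in WT_0d and 37.9, 43.4 and 36.1 FPKM in WT_5d, which overlap. It was 24.3, 27.7 and 27.1 FPKM in PPARγ/+_0d and 39.3, 43.3 and 47.3 FPKM in PPARγ/+_5d. PPARγ/+_0d was thus the low group, and the other 3 groups overlapped. The difference between days was 0.02 (SE 0.11, adjusted p = 0.910) in WT and 0.71 (SE 0.08, adjusted p = 0.000673) in PPARγ/+ cells, the latter under 2-fold, and the former was 0.08 (SE 0.11) without WT_5d replicate 3. Jund, the JUN gene usually expressed at a steady level, had the same low group, with 17.1 to 19.0 FPKM in WT_0d, 19.0 to 21.1 FPKM in WT_5d, 9.74 to 14.3 FPKM in PPARγ/+_0d and 17.2 to 19.9 FPKM in PPARγ/+_5d. Its differences between days were 0.13 (SE 0.08, adjusted p = 0.244) and 0.68 (SE 0.14, adjusted p = 0.00707), and the first was 0.15 (SE 0.08) without that library.

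Junb made up 63.3% ± 2.20 (SD, n = 3) of the summed FPKM of Jun, Junb and Jund in WT_0d, 82.6% ± 6.98 in WT_5d, 76.6% ± 2.82 in PPARγ/+_0d and 82.9% ± 0.224 in PPARγ/+_5d, and the mean in WT_5d without replicate 3 was 79.0%. These shares did not overlap between the days of either cell type, nor between the cell types on 0d, each with the smallest p = 0.1 of the exact permutation test (adjusted p = 0.16). On 5d they overlapped (exact permutation p = 0.8). The summed level of the JUN family was 154.5 ± 6.04 and 381 ± 156 FPKM in WT on 0d and 5d, and 164 ± 14.1 and 364 ± 34.0 FPKM in PPARγ/+ cells.

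Egr1, a zinc finger factor induced through SRF, was 53.6, 57.2 and 55.7 FPKM in WT_0d and 130.5, 166 and 241 FPKM in WT_5d. In PPARγ/+ cells it was 40.3, 26.0 and 32.8 FPKM on 0d and 172, 187 and 200.2 FPKM on 5d. PPARγ/+_0d was the lowest group, WT_0d the next, and the groups of 5d overlapped above them. The rise was 1.64 on the log2 scale in WT cells (SE 0.21, adjusted p = 0.00213) and 2.51 in PPARγ/+ cells (SE 0.16, adjusted p = 6.18e-05). Without WT_5d replicate 3 the rise in WT cells was 1.41 (SE 0.12, adjusted p = 0.00141).

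Atf3, a stress-induced factor of the ATF/CREB family, was 4.64, 3.98 and 2.95 FPKM in WT_0d and 1.90, 1.49 and 0.734 FPKM in WT_5d. It was 0.799, 0.979 and 0.914 FPKM in PPARγ/+_0d and 0.940, 1.14 and 1.12 FPKM in PPARγ/+_5d. WT_0d was the high group. Of WT_5d, replicates 1 and 2 lay above all 6 PPARγ/+ libraries, and replicate 3, the library that stood apart, lay below them. These levels rest on 147 to 216 fragments per library in WT_0d and on 36 to 104 in the other groups. Atf3 fell by 1.49 on the log2 scale in WT cells (SE 0.35, adjusted p = 0.0177), and by 1.13 without WT_5d replicate 3 (SE 0.23, adjusted p = 0.0168). In PPARγ/+ cells the difference was 0.23 (SE 0.15, adjusted p = 0.251) and the days overlapped.

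Creb5, a CREB family factor that can pair with JUN, was the member with the lowest FPKM, and its rule for inclusion used these values. It was 0.714, 0.756 and 0.602 FPKM in WT_0d and 0.244, 0.208 and 0.169 FPKM in WT_5d. In PPARγ/+ cells it was 0.112, 0.145 and 0.169 FPKM on 0d and 0.286, 0.241 and 0.323 FPKM on 5d. WT_0d lay above the other groups, PPARγ/+_5d and WT_5d overlapped, and PPARγ/+_0d was lowest, although its highest library (0.16895 FPKM) nearly met the lowest of WT_5d (0.16925 FPKM). The fragments behind these levels were 334, 460 and 336 in WT_0d and between 66 and 150 in the 9 other libraries. Fos had fewer fragments in WT_0d, with 151, 173 and 166. The annotated exons of Creb5 cover 25021 bases and those of Fos 2352, so the rank by FPKM depends on the length used. The log2 difference between days was -1.37 in WT cells (SE 0.21) and 0.67 in PPARγ/+ cells (SE 0.21), and that between the cell types was -1.71 on 0d (SE 0.18) and 0.32 on 5d (SE 0.19). With WT_5d replicate 3 left out, the Creb5 difference between days was -1.27 in WT cells, and that on 5d between the cell types was 0.23.

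The neuronal tubulin gene Tubb3 had a like pattern on 0d, with 33.3 to 52.8 FPKM in WT_0d and 4.30 to 12.2 FPKM in the other 9 libraries. It was the only one of 3 neural markers at 1 FPKM or more, since Elavl3 was at most 0.086 FPKM and Snap25 was at 0 in all libraries, and its relation to Atf3 and Creb5 was not tested.

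Sik1 was 4.82, 6.13 and 3.61 FPKM in WT_0d and 18.1, 15.9 and 14.5 FPKM in WT_5d. In PPARγ/+ cells it was 3.23, 2.44 and 3.10 FPKM on 0d and 7.14, 8.09 and 7.97 FPKM on 5d. The 4 groups did not overlap, and their order from the lowest was PPARγ/+_0d, WT_0d, PPARγ/+_5d and WT_5d. The log2 difference between days was 1.74 in WT (SE 0.20) and 1.38 in PPARγ/+ cells (SE 0.12), and that between the cell types was -0.69 on 0d (SE 0.21) and -1.05 on 5d (SE 0.10). With WT_5d replicate 3 left out, the Sik1 difference between days was 1.81 in WT cells, and that on 5d between the cell types was -1.12. The groups of 5d overlapped for the early genes Fos, Junb and Egr1, for Fos and Egr1 only through WT_5d replicate 3. Since Sik1 was chosen for its difference between the cell types, its separation does not set it apart from these genes. WT_5d replicate 3, which had the highest Fos, had the lowest Sik1 of its group.

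PPARγ/+ cells were next compared with WT cells on each day, and a gene was called when the limma p adjusted over all genes did not exceed 0.05 and the difference reached 2-fold. On 0d Atf3 was lower in PPARγ/+ cells by 1.97 on the log2 scale (-1.97, SE 0.19, adjusted p = 0.0132), and no other tested gene was called. That is 1 of 8 genes where 1.59% of all genes were called, with 1 lower and 0 higher in PPARγ/+ cells beside 1.23% and 0.361% of all genes. For Atf3 the call was lost when WT_0d replicate 2 (-1.93, adjusted p = 0.0557) or PPARγ/+_0d replicate 2 (-2.03, adjusted p = 0.0592) or 3 (-1.98, adjusted p = 0.0643) was left out, and with a replicate block (adjusted p = 0.139). Over all 18 alternatives the Atf3 difference lay between -2.14 and -1.34 and its adjusted p between 0.00160 and 0.139.

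For Jun the difference on 0d was -0.55 (SE 0.09, adjusted p = 0.0385), which passed the p-value and not the 2-fold limit. The differences of Egr1 (-0.77, SE 0.16, adjusted p = 0.0579), Jund (-0.62, SE 0.14, adjusted p = 0.0720) and Junb (0.36, SE 0.09, adjusted p = 0.0938) did not pass. These 4 genes and Atf3 did not overlap between the cell types on 0d, as did 26.8% of all genes, and all 5 had an unadjusted p-value under 0.05, as did 21.7% of all genes. Fos, Fosl1 and Fosl2 differed by -0.23, -0.33 and -0.08, and their libraries overlapped. The median difference of the 8 genes was -0.44, beside 0.02 over all genes tested.

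On 5d none of the 8 tested genes was called by limma, none had an unadjusted p-value under 0.05 (12.7% of all genes had), and none had separate libraries, where 0.155% of all genes were called (0.0943% higher and 0.061% lower in PPARγ/+ cells) and 18.5% did not overlap. The differences were 0.11 for Fos (SE 0.66), 0.28 for Fosl1 (SE 0.20), 0.07 for Fosl2 (SE 0.15), 0.15 for Jun (SE 0.10), 0.02 for Junb (SE 0.36), -0.07 for Jund (SE 0.08), -0.25 for Atf3 (SE 0.34) and 0.10 for Egr1 (SE 0.23), with a median of 0.09 beside 0.02 over all genes. When WT_5d replicate 3 was left out, 4.01% of all genes were called and again none of the 8. Fos then differed by 0.86 (SE 0.30, adjusted p = 0.140), Fosl2 by 0.23 (SE 0.07, adjusted p = 0.117), Egr1 by 0.34 (SE 0.13, adjusted p = 0.164) and Atf3 by -0.61 (SE 0.17, adjusted p = 0.0865), each with an unadjusted p-value under 0.05, as had 29.6% of all genes. Over the 18 alternatives the adjusted p of these 4 genes was never below 0.0865. In WT_5d replicates 1 and 2, Fos, Fosl1, Fosl2 and Egr1 lay below all PPARγ/+_5d libraries, and Atf3 lay above them. With all libraries these genes overlapped on 5d only through WT_5d replicate 3, which was set apart partly by its Fos and Egr1 levels. Groups with fewer libraries separate more readily, and how many of all genes separate without that library was not counted. The separation is therefore not read as a trait of these genes.

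Whether the change between days differed between the cell types was tested as the interaction over all 12 libraries, with a call where the adjusted p did not exceed 0.05. limma called none of the 8 tested genes, where 0.76% of all genes were called (0.583% with a positive and 0.178% with a negative value), and 4 had an unadjusted p-value under 0.05, as did 12% of all genes. These were Atf3 (1.72, SE 0.40, adjusted p = 0.0851), Egr1 (0.87, SE 0.28, adjusted p = 0.231), Jun (0.69, SE 0.14, adjusted p = 0.0582) and Jund (0.55, SE 0.17, adjusted p = 0.202), each with a more positive change in PPARγ/+ cells. For Fos, Fosl1, Fosl2 and Junb the interaction was 0.34 (SE 0.70), 0.61 (SE 0.31), 0.15 (SE 0.22) and -0.34 (SE 0.38). The median over the 8 genes was 0.58, beside -0.01 over all genes.

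With that library of WT_5d (replicate 3) left out, 3 of the 8 genes were called, where 2.92% of all genes were. These were Egr1 (1.11, SE 0.22, adjusted p = 0.0259), Atf3 (1.36, SE 0.26, adjusted p = 0.0263) and Jun (0.64, SE 0.14, adjusted p = 0.0462). That library was set apart partly by its levels of members such as Egr1, so these calls are not an independent test. Over 23 alternatives the adjusted p lay between 0.00592 and 0.447 for Egr1, between 0.00488 and 0.212 for Atf3 and between 0.0179 and 0.157 for Jun. Without WT_5d replicate 1 Atf3 alone was called (1.99, adjusted p = 0.0379).

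The other genes of the pathway were then read from lists. Of 26 tested genes among the other bZIP factors, which include Fosb, Jdp2, Creb1 and the MAF factors, 2 rose and 1 fell between days in WT cells and 0 rose and 1 fell in PPARγ/+ cells. Of all genes 16.5% and 15.2% were called in these comparisons, and without PPARγ/+_0d replicate 1 the latter count was 1 risen and 3 fallen. Maf, a large MAF factor, rose by 1.602 (SE 0.27, adjusted p = 0.00568) and Nfe2l1, a regulator of proteasome genes, by 1.02 (SE 0.09, adjusted p = 0.000500) in WT cells, and by 1.30 and 1.04 without WT_5d replicate 3. The other calls were Batf and Creb3l3, which lie outside the rule for named genes and were named after their values were seen: Batf fell in both cell types, with group means of at most 0.636 FPKM, and Creb3l3 was higher in PPARγ/+_0d by 1.54 (SE 0.19, adjusted p = 0.0212) at no more than 0.425 FPKM. The call of Creb3l3 was lost without any 1 of 5 of the 6 libraries. The median change of the list was 0.09 in WT and -0.00 in PPARγ/+ cells.

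Of 29 tested genes among the other immediate early genes, 8 rose and 2 fell in WT cells and 7 rose and 1 fell in PPARγ/+ cells. Of all genes 8.94% rose and 7.53% fell in WT cells, and 9.11% rose and 6.06% fell in PPARγ/+ cells. The medians of the list were -0.08 and -0.03, beside -0.08 and -0.10 over all genes. Egr3, an EGR factor like Egr1, rose by 1.99 in WT (SE 0.15, adjusted p = 0.000368) and by 2.97 in PPARγ/+ cells (SE 0.16, adjusted p = 3.89e-05). Nr4a1, an orphan nuclear receptor, rose by 2.40 in WT cells (SE 0.88, adjusted p = 0.0755) and by 1.36 without WT_5d replicate 3 (SE 0.38, adjusted p = 0.0422). Dusp4, a MAP kinase phosphatase, fell by 1.94 in WT cells (SE 0.14, adjusted p = 0.000321). In WT cells without WT_5d replicate 3 Egr3 rose by 2.10 and Dusp4 fell by 2.04. Egr2 rose by 2.65 (SE 0.17, adjusted p = 6.59e-05) and Ccn2, a matricellular growth factor, by 2.13 (SE 0.16, adjusted p = 0.000131) in PPARγ/+ cells. In WT cells the list had 7 risen and 5 fallen genes when WT_5d replicate 3 was left out.

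**Figure D4:**
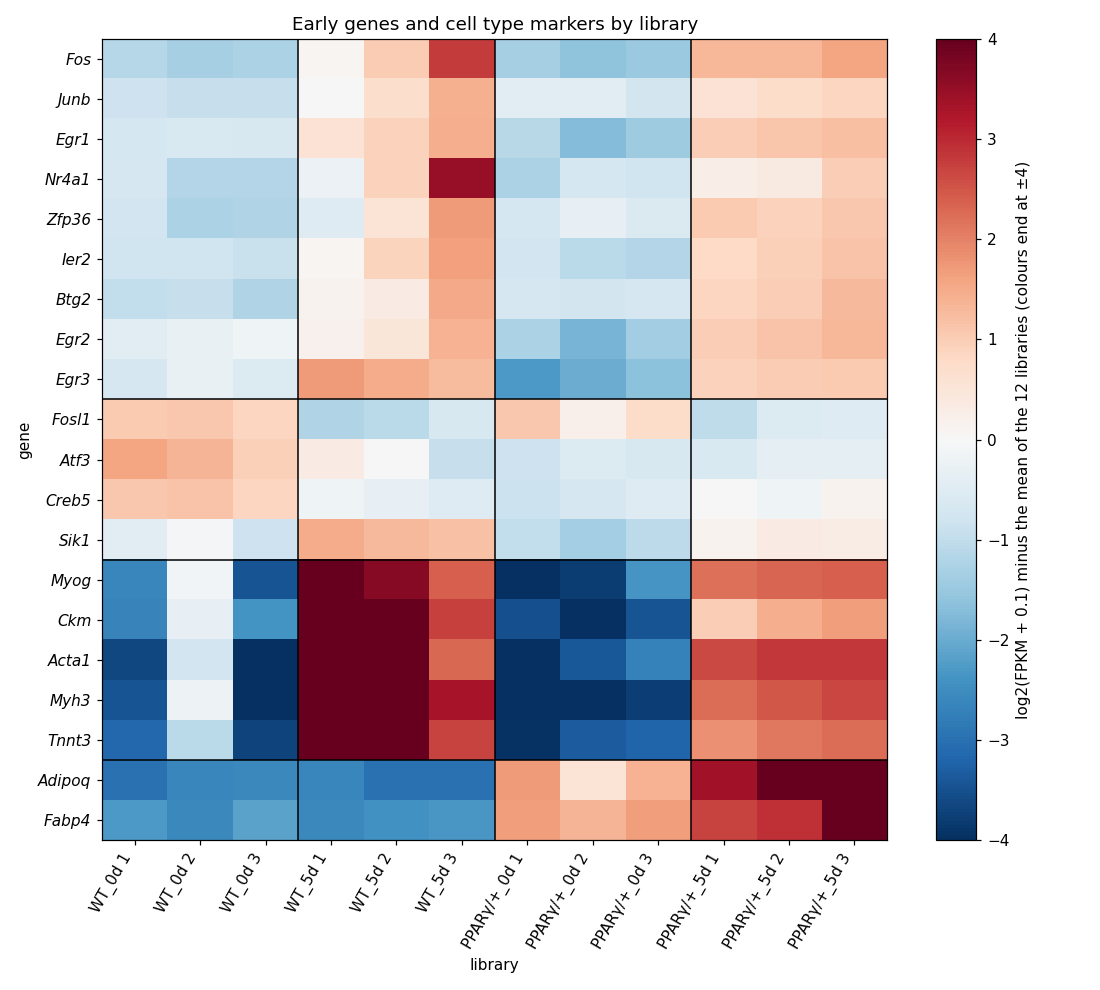
Log2(FPKM + 0.1) minus the mean of the 12 libraries for early genes, the other members named in the rows, myotube markers and adipocyte markers, with libraries in columns and colours that end at ±4. WT_5d replicate 3 is darkest for Fos and Nr4a1 (52.7 and 71.3 FPKM) and paler than WT_5d replicates 1 and 2 for the myotube markers.

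On 0d, 5 of these 29 genes were lower in PPARγ/+ cells and none was higher, where 1.23% and 0.361% of all genes were. They included Egr3 (-1.46, SE 0.20, adjusted p = 0.0240), Egr2 (-1.20, SE 0.18, adjusted p = 0.0267) and Ccn2 (-1.12, SE 0.21, adjusted p = 0.0489), beside a list median of -0.23. When any 1 of the 6 libraries of 0d was left out, the count was 0 or 1. On 5d none of the 29 was called, where 0.155% of all genes were. In the interaction limma called Ccn2 alone (1.68, SE 0.27, adjusted p = 0.0180), where 0.76% of all genes were called. No gene of the list was called without WT_5d replicate 2, PPARγ/+_0d replicate 2 or PPARγ/+_5d replicate 2 or 3. Without WT_5d replicate 3 the calls were Egr2 (2.02), Ccn2 (1.71), Dusp4 (0.95) and Myc (0.61), where 2.92% of all genes were called. Of these Dusp4 and Myc were named after their values were seen.

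Of 20 tested genes among the SIK kinases, CREB coactivators, class IIa histone deacetylases and protein kinase A subunits, which act with Sik1, 2 rose and 1 fell in WT cells and 2 rose in PPARγ/+ cells, where 16.5% and 15.2% of all genes were called. The WT count was 1 risen and 0 fallen without WT_0d replicate 3 and 1 risen and 1 fallen without WT_5d replicate 1, and the PPARγ/+ count was 1 to 3 risen with 1 library left out, with 1 without PPARγ/+_5d replicate 3. Pkig and Pkia, which encode inhibitors of protein kinase A, rose by 1.46 (SE 0.23, adjusted p = 0.00450) and 1.14 (SE 0.32, adjusted p = 0.0342) in WT cells, and Prkar2b, a regulatory subunit, fell by 1.10 (SE 0.13, adjusted p = 0.00148). Without WT_5d replicate 3 these changes were 1.73, 1.45 and -1.17. In PPARγ/+ cells Pkig rose by 1.26 (SE 0.11, adjusted p = 0.000181), and the other called gene was Hdac9 (1.10), named after its value was seen. No gene of this list was called between the cell types, where 1.59% of all genes were on 0d and 0.155% on 5d. The list medians were 0.04 and -0.04 between days.

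Of the 18 genes for MAP kinases, SRF and its cofactors, which act upstream of Fos and Egr1, limma called none between days or between the cell types. Of all genes 16.5% in WT and 15.2% in PPARγ/+ cells were called between days. Between the cell types 1.59% were called on 0d and 0.155% on 5d. The median change of the 18 genes was -0.26 in each cell type (-0.255 in WT and -0.263 in PPARγ/+ cells), beside -0.08 and -0.10 over all genes. In the interaction limma called Elk3, an SRF cofactor (0.55, SE 0.10, adjusted p = 0.0441), where 0.76% of all genes were called. The call of Elk3 was lost without any 1 of 10 of the 12 libraries.

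Of 15 genes known as AP-1 targets, 3 rose and 7 fell in WT cells, with a median of -0.43, and 4 rose and 2 fell in PPARγ/+ cells, with a median of 0.41. Beside these stand 8.94% risen and 7.53% fallen of all genes in WT cells and 9.11% and 6.06% in PPARγ/+ cells. The 4 risen were 2 without PPARγ/+_0d replicate 2. Areg, an EGF receptor ligand, fell by 3.03 in WT cells (SE 0.18, adjusted p = 0.000213) and by 2.91 without WT_5d replicate 3. Plaur, the urokinase receptor, fell by 2.64 in WT (SE 0.10, adjusted p = 0.000130) and by 1.92 in PPARγ/+ cells (SE 0.12, adjusted p = 6.32e-05). The protease gene Mmp3 rose by 1.99 in WT (SE 0.45, adjusted p = 0.0152) and by 2.75 in PPARγ/+ cells (SE 0.34, adjusted p = 0.000826). The cyclin gene Ccnd1 fell by 1.78 in WT (SE 0.12, adjusted p = 0.000263) and by 1.27 in PPARγ/+ cells (SE 0.21, adjusted p = 0.00289). Without WT_5d replicate 3 the WT changes were -2.67 for Plaur, 2.16 for Mmp3 and -1.83 for Ccnd1.

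On 0d Plau, which encodes urokinase (-1.77, SE 0.21, adjusted p = 0.0188), the adhesion receptor Cd44 (-1.16, SE 0.19, adjusted p = 0.0371) and the EGF receptor ligand Hbegf (-1.06, SE 0.14, adjusted p = 0.0232) were lower in PPARγ/+ cells, and the count was 0 or 1 when any 1 library was left out. Of all genes 1.23% were called as lower on 0d. In the interaction limma called 3 of the 15, where 0.76% of all genes were called. Among the 3 were Areg (2.35, SE 0.28, adjusted p = 0.00844) and Mmp10 (3.45, SE 0.66, adjusted p = 0.0447, named after its value was seen). This count ranged from 1 to 5 when 1 library was left out. It was 5 without WT_5d replicate 3, where 2.92% of all genes were called. On 5d none of the 15 was called with all libraries, where 0.155% of all genes were. Without WT_5d replicate 3 limma called Areg (1.48, SE 0.21, adjusted p = 0.0248), where 4.01% of all genes were called.

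The genes whose pattern over the 12 libraries was most like a member's were sought among 11681 genes with a mean of at least 1 FPKM, by Pearson's r of log2(FPKM + 0.1). The 12 points fall into 4 groups, so r follows mainly the group levels, and it is given as a description. For Creb5 they were Ptger4 (r = 0.964), the myogenic factor Myf5 (0.951), Rem1 (0.935), Tlnrd1 (0.928) and Notch1 (0.926). For Sik1 they were Fam167a (0.986), the cardiac actin gene Actc1 (0.982), the muscle creatine kinase gene Ckm (0.981), Spsb1 (0.976) and Cfl2 (0.972), the muscle cofilin. For Fosl1 they were Ebna1bp2 (0.985), Senp1 (0.984), Nfyb (0.980), Exosc2 (0.980) and Ywhaq (0.979). For Egr1 they were Ivns1abp (0.978), Vcam1 (0.974), Efemp1 (0.974), Egr2 (0.971) and Ltbp3 (0.971).

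Some members share exonic bases with other genes, and since no strand setting of the counting is given, reads in such bases cannot be assigned. On GRCm38, Fosl1 (chr19:5447547-5455946, + strand) shared 1163 exonic bases with Ccdc85b on the opposite strand, whose group means were 33.7 to 41.1 FPKM. Junb (chr8:84974484-84978718, - strand) shared 173 bases with Prdx2, whose means were 108 to 146 FPKM, and Jun (chr4:95049034-95052222, - strand) shared 232 bases with Junos, at most 1.24 FPKM. Jund (chr8:70698949-70700616, + strand) and Creb5 (chr6:53287270-53700376, + strand) overlapped only gene models at 0 FPKM. Fos (chr12:85473890-85477273, + strand), Fosl2 (chr5:32135801-32157842, + strand), Atf3 (chr1:191170296-191218039, - strand), Egr1 (chr18:34859823-34864984, + strand) and Sik1 (chr17:31844250-31855804, - strand) shared no exonic base with another gene. All values above are sums over the exons of a gene and do not separate its transcripts.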

How the data were processed

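Per the study's methods, Trim Galore, STAR, HTSeq and DESeq2 were used by the authors for trimming, alignment, counting and testing of paired-end reads, on GRCm38 and Ensembl release 83. The submitters' processing notes name mm9 instead, and gene positions given here are those of GRCm38 in GENCODE M21. The values used are the FPKM deposited by the authors for 46983 genes in 12 libraries, all columns of which were mapped to a sample by name. A second deposited table holds log2-scale values by the authors and was not used. Whole fragments were recovered from FPKM, gene length and mapped read pairs for 21029 genes with the annotated length and for 6108 with an inferred length (relative tolerance 1e-13), and 1 expressed gene gave none. They serve for depth and an added alternative. The deposited values are not counts, so no count test is a main result, and voom on the recovered fragments is an alternative.

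log2(FPKM + 0.1) of 18023 genes was fitted with limma 3.58.1 (R 4.3.3, empirical Bayes with trend), each pair of groups on its own 6 libraries and the interaction on all 12. Adjusted p-values are Benjamini-Hochberg over all genes tested. A call between days needed p up to 0.05 before adjustment and 2-fold, the thresholds of the study, and a call between cell types needed it after adjustment. A fold change on this scale understates the change of low genes. The steps were tested on simulated data. Family shares used exact permutation tests (scipy 1.17.1). Tables and plots used Python 3.11.15, numpy 2.4.6, pandas 2.3.3 and matplotlib 3.10.9.

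The members, the gene lists and the tests were chosen with earlier results of these data known. Named genes are the 10 members, Pparg, the markers, up to 3 called genes per list and comparison with the largest change (group mean of 1 FPKM or more, no overlap), and the 5 genes most like Creb5, Sik1, Fosl1 and Egr1. A gene that the rule names is not reported here. The list genes Cyr61 and Ctgf are given as Ccn1 and Ccn2. Alternatives were pseudocounts of 1 and 0.01, no filter, a filter at 1 FPKM, median-ratio scaling, quantile normalization, another threshold, 1 fit of all libraries, array weights, no trend, a replicate block, each library left out, families without Fosb or Jund, and voom on recovered fragments, which was added after seeing the data.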

Additional observations from a re-analysis of the deposited data

Results flagged for a closer look

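The levels of Creb5 moved in opposite directions in the 2 cell types. All 3 WT_5d libraries lay below all 3 WT_0d libraries, and all 3 PPARγ/+_5d libraries lay above all 3 PPARγ/+_0d libraries, so that the change between days was 2.03 higher (log2) in PPARγ/+ cells. The difference was not tested here, because Creb5 was chosen for its difference between the cell types. Its levels were at most 0.756 FPKM. Groups of 3 libraries were too small to test for a library far from its group.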

How the results depend on the processing

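Calls of the members between days were the same 5 in number in WT and 4 in PPARγ/+ cells under every alternative. Between the cell types on 0d the number called was 1, and 0 with the replicate block and 0 to 1 with 1 library left out (0 without WT_0d replicate 2 or PPARγ/+_0d replicate 2 or 3). On 5d it was 0 under every alternative. In the interaction it was 0, and 1 with quantile normalization, 2 at an adjusted p of 0.1, 4 with array weights and 0 to 3 with 1 library left out (1 without WT_5d replicate 1, 3 without replicate 3).

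With 1 library left out the Fosl1 share differed between the cell types by -7.52 to 0.578 percentage points on 0d (0.578 without PPARγ/+_0d replicate 2) and by -1.05 to 6.42 on 5d (-1.05 without WT_5d replicate 3), and the Junb share on 5d by -3.10 to 3.87 (-3.10 and -0.00813 without WT_5d replicates 1 and 2). With Jund left out of the family the last was -0.209. The signs of other small differences turned as well when 1 library was left out. Their log2 ranges were -0.057 to 0.092 for Jun between days in WT and -0.183 to 0.097 for Fosl2 on 0d. On 5d they were -0.510 to 0.859 for Fos, -0.050 to 0.226 for Fosl2, -0.343 to 0.382 for Junb, -0.612 to 0.017 for Atf3 and -0.102 to 0.340 for Egr1. In the interaction they were -0.277 to 1.093 for Fos, -0.028 to 0.303 for Fosl2 and -0.702 to 0.022 for Junb. Junb on 5d was -0.019 with median-ratio scaling. The cause was not tested.

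No pairing of the libraries by replicate number was seen, since deviations of same-numbered libraries correlated at -0.07 to 0.08. Libraries with different numbers were not compared in this way, and whether same-numbered libraries share a culture was not tested. With the replicate block 3029 and 2766 genes were called between days, 61 in the interaction and 0 between the cell types on either day by limma, where 2755 and 2001 had an unadjusted p-value under 0.05. The counts without the block were 2970, 2735, 137, 287 and 28.

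With a pseudocount of 1 the counts of all genes called were 1441, 1241, 115 and 8 between days and cell types, and with array weights they were 502 on 5d and 2070 in the interaction. Without WT_5d replicate 3 they were 723 and 527, and with 1 library left out they ranged over 55 to 137 on 0d, 1 to 723 on 5d and 42 to 527 in the interaction. On 5d the count was 71 with a pseudocount of 0.01, 606 at the other threshold (276 in the interaction), 46 with no trend and 199 with all libraries in 1 fit, and on 0d it was 107 with no filter and 661 at the other threshold. A filter at 1 FPKM gave 1806 between days in PPARγ/+ cells and voom 485 on 0d. With median-ratio scaling the median over all genes was 0.02 in WT and 0.02 in PPARγ/+ cells, against -0.08 and -0.10, and gave 1834 risen and 1092 fallen genes in WT and 1881 and 890 in PPARγ/+ cells, against 1612 and 1358, and 1642 and 1093. Creb5 and Atf3 rest on few fragments, from 66 and 36 per library.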
